A study of Rangifer tarandus with 4 samples.

Results

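The genes described here are the fibroblast growth factors (FGFs), vascular endothelial growth factors (VEGFs) and platelet-derived growth factors (PDGFs) of cattle, together with the receptors that bind them. They were chosen by symbol in the gene annotation deposited with a reindeer study, and 40 of its 21861 protein-coding gene models carried such a symbol. The 31 ligand models were 22 of FGF genes, 5 of VEGF genes (VEGFA to VEGFD and PGF) and 4 of PDGF genes (PDGFA to PDGFD). The 9 receptor models were FGFR1 to FGFR4, the VEGF receptors FLT1, KDR and FLT4, and PDGFRA and PDGFRB. FGF13 was carried by 2 models, on chromosome X and on an unplaced scaffold, and the symbol FGF11 was not matched.

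The study made 4 droplet single-cell RNA libraries with a 3′ method from blood mononuclear cells of reindeer (Rangifer tarandus). Per the labels, 2 libraries (back) were drawn from the saphenous vein and 2 (antler) from the distal antler velvet, the furred skin over a growing antler, with 12000 cells loaded for each. Blood of both groups was taken 3 days after a wound, with no unwounded group among the 4 libraries, and the animals' genotype and age and the nature of the wound are not given in the sources used here. Cell-by-gene counts were not analysed here. No expression level, cell type or depth is therefore reported, and all values below describe gene models on the cattle assembly ARS-UCD1.2, with positions counted from 1.

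FGFs, VEGFs and PDGFs are extracellular signals that act through receptor tyrosine kinases, single-pass membrane proteins with immunoglobulin-like domains outside the cell and a split kinase domain inside it. A bound ligand pairs the receptors, which then phosphorylate each other and switch on the RAS-MAPK, PI3K-AKT and phospholipase C pathways. FGFs pattern limbs, skin and bone, VEGFs drive the growth of blood and lymph vessels, and PDGFs call in and expand mesenchymal cells such as fibroblasts and pericytes, all of which bear on a tissue that rebuilds bone, vessels and skin each year. In 3′ libraries reads lie near the polyadenylated end of a transcript, so the annotated 3′ untranslated region (3′ UTR) is the part of a gene model that such reads would meet.

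Receptor genes had more exons and longer coding sequences than every ligand gene. The largest number of exons over the transcripts of a gene had a median of 5 in the 31 ligand models (range 3 to 8) and of 23 in the 9 receptor models (range 17 to 30). The longest coding sequence had a median of 648 bases in ligands (465 to 1260) and of 3294 bases in receptors (2400 to 4095). Neither measure overlapped between the groups, so that the receptor was the larger in all 279 ligand and receptor pairs. At least 17 exons, the number of the receptor with fewest, were found in 9 of the 40 models, against 18.6% of the 16808 protein-coding genes with a symbol, here called named genes. The median coding length of named genes was 1344 bases, and that of FGFR4, the shortest among receptors, lay above 79.9% of them. Ligands and receptors are all gene models that carried these symbols rather than samples. FGF11 is absent from them, and FGF13 stands with 2 models. Related genes are not independent, so the groups are described by counts and medians without a test.

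Span separated the roles far less than exon number did. The gene line covered a median of 21906 bases in ligands and 47757 bases in receptors, and 21004.5 bases in all named genes. The ligand range ran from 1738 bases in FGF21, a liver hormone of fasting, to 406470 bases in FGF12, and enclosed the whole receptor range from 11047 bases in FGFR4 to 205245 bases in FLT1. Of the 31 ligands, 20 were at least as long as FGFR4, and the receptor was the longer in 175 of 279 pairs (62.7%). The plot of exons against span shows both patterns, with receptors set apart along the exon axis and mixed with ligands along the span axis.

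**Figure D1:**
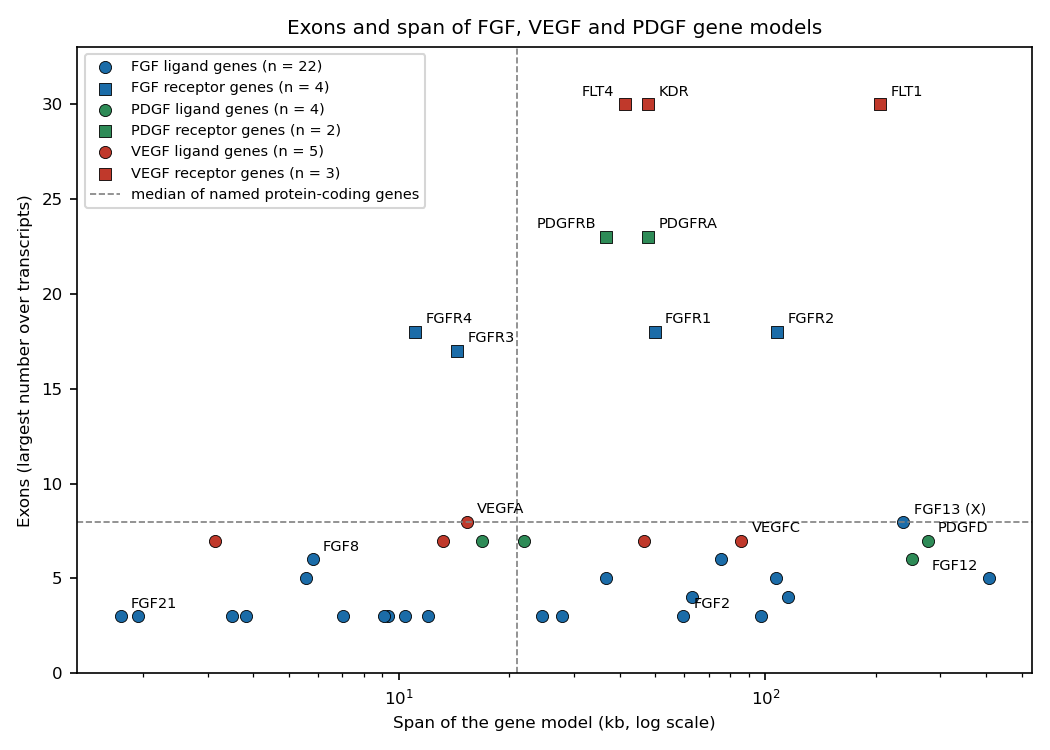
Exon number (largest over transcripts) against the span of the gene model in kb on a log scale, 1 point for each of the 40 models, with colour for the family, circles for ligands and squares for receptors. Dashed lines mark the medians of named protein-coding genes (8 exons, 21004.5 bases); all squares lie at 17 exons or more and all circles at 8 or fewer, while spans overlap.

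Among the FGFs, 13 of 22 models had exactly 3 exons, and no VEGF, PDGF or receptor model did. A gene of 3 exons was found in 6.63% of named genes. These 13 were FGF2, FGF3, FGF4, FGF5, FGF6, FGF9, FGF10, FGF16, FGF19, FGF20, FGF21, FGF22 and FGF23, which include all members of the FGF4, FGF9 and hormone groups. FGF7, the keratinocyte growth factor, had 4 exons and FGF1 up to 5, but both also had 3 coding exons. The FGF8 group, signals of limb and brain organisers and of cartilage, had 5 exons in FGF17 and FGF18 and 6 in FGF8. The intracellular FGFs, which bind sodium channels instead of being secreted, had 4 exons in FGF14, 5 in FGF12, and 6 and 8 in the models of FGF13.

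The FGF genes also shared the size of an exon. An inner coding exon of 104 bases was annotated in at least 1 transcript of 19 of the 22 FGF models, against 5.91% of named genes (994 of 16808). In all 15 FGF models with a transcript of 3 coding exons, the middle exon was the one of 104 bases. That arrangement was found in 24 of the 1494 named genes with such a transcript, these 15 included. FGF8, FGF17 and FGF18 lacked it and instead shared inner coding exons of 37 and 107 bases. Between these lay an exon of 178 bases in FGF17, an exon of 181 bases in FGF18, and exons of 87 and 181 bases in FGF8. An inner coding exon of 107 bases was also found in VEGFC, FLT1, FLT4 and KDR. Shares of the sizes 37 and 107 over all genes were not counted. FGF12, FGF13 and FGF14, which had other numbers of coding exons, carried the exon of 104 bases too. The sizes looked at were chosen after the exon lists had been seen.

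The FGF genes were alike in coding length and differed widely in span. Coding length ran only from 465 bases in FGF1 and FGF2, the acidic and basic FGFs, to 810 bases in FGF5, a brake on hair growth. The 3 hormone FGFs, which act through the blood on bile acid, energy and phosphate balance, were compact, with spans of 3811 bases in FGF19, 1738 bases in FGF21 and 9120 bases in FGF23. The 4 models of intracellular FGFs, 2 of them of FGF13, were long, with a median of 176353 bases against 9840 bases in the 18 secreted FGFs. The ranges overlapped, since the shortest intracellular model, the unplaced one of FGF13, spanned 75427 bases. Of the secreted FGFs, FGF1 (107036 bases) and FGF10 (97312 bases) were longer than that. A single intron made up much of the longer genes. In FGF10, a signal of lung and limb budding, an intron of 89066 bases was 91.5% of the transcript, in FGF14 the longest intron was 103054 bases (89.6%), and in FGF7 it was 57951 bases (91.9%). FGF12 (chromosome 1, 74876548 to 75283017) had its longest intron of 171225 bases in the transcript with the longest coding sequence.

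The VEGF ligands had 7 or 8 exons and fell into size classes. VEGFA, the main signal of vessel sprouting, had 8 exons in 15279 bases (chromosome 23, 17281915 to 17297193). VEGFB and PGF, which bind FLT1, had 7 exons in 3145 and 13162 bases. VEGFC and VEGFD, the lymphatic factors, also had 7 exons, but in 85754 and 46498 bases. Coding sequences were 510, 621 and 642 bases in PGF, VEGFB and VEGFA, and 1062 and 1260 bases in VEGFD and VEGFC. VEGFA and PGF shared 3 inner coding exons in a row of 197, 77 and 30 bases. VEGFB had only that of 197 bases among these, and VEGFC and VEGFD shared an exon of 191 bases. An exon of 191 bases was also found in each FGF receptor, and one of 197 bases in KDR. Shares of these sizes over all genes were not counted.

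The 4 PDGF ligands had 6 or 7 exons and differed more in span than in exon number. PDGFA and PDGFB, the classical chains, spanned 16795 and 21906 bases. PDGFC and PDGFD, which carry an added CUB domain and are activated by proteolysis, spanned 251208 and 276999 bases. The long pair did not overlap the short pair. In span PDGFC and PDGFD exceeded 96.06% and 96.63% of named genes, PDGFA and PDGFB 44.02% and 50.96%. The first intron alone was 141681 bases in PDGFC and 180025 bases in PDGFD. PDGFC and PDGFD also shared a coding exon of 181 bases, a size that FGF8 and FGF18 had too. The share of all genes with it was not counted. DDI1, a gene of 1 exon on the opposite strand, lay inside PDGFD (chromosome 15, 4390043 to 4392103), and an unnamed gene of 1 exon lay inside FGF18.

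More than 1 transcript was annotated for 19 of the 40 models, near the 46.1% of named genes. It was so for 13 of 31 ligands and 6 of 9 receptors, with a median of 1 transcript in ligands and 2 in receptors. The most were 6, in FGFR1 and FGFR2, and among ligands 4, in FGF1 and VEGFA. By family, 6 of 22 FGF ligand models had more than 1 transcript, 4 of 5 VEGF ligands and 3 of 4 PDGF ligands.

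What the alternatives changed differed between genes. The 4 transcripts of FGF1 held the same 465 coding bases and differed only outside them, with 5′ UTRs of 114 to 587 bases. In VEGFA 4 coding sequences of 642, 612, 570 and 438 bases were annotated. The transcript of 570 bases lacked 1 exon of 72 bases and that of 438 bases lacked 2 exons of 204 bases together, near the end of the coding sequence. VEGFA is known for isoforms that differ in how firmly they are held by the extracellular matrix, through exons of that part. The transcript of 612 bases began further downstream and had no annotated 5′ or 3′ UTR. PGF showed a like choice, with coding sequences of 510 and 447 bases that differed by an exon of 63 bases. In FGF5 the second transcript left out the exon of 104 bases, and its coding sequence was 375 rather than 810 bases. The transcripts of PDGFA, with coding sequences of 939, 633 and 588 bases, shared 48.6% of their joined coding bases, and those of FGF12 (62.3%) started at 3 places and ended at the same stop codon.

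**Figure D2:**
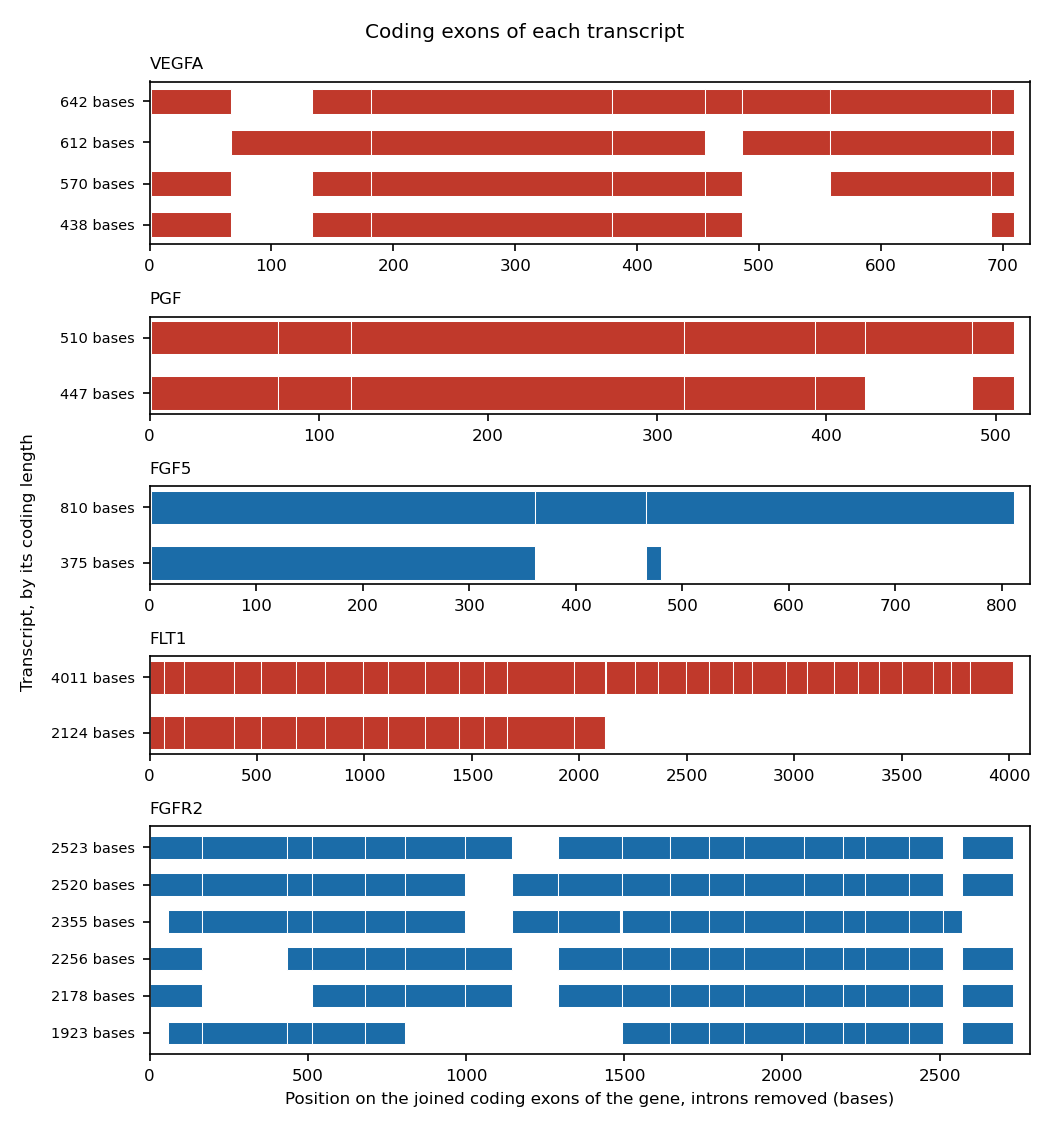
Coding exons of every annotated transcript of VEGFA, PGF, FGF5, FLT1 and FGFR2, drawn to scale on the joined coding exons of each gene with introns removed (bases), 1 row for each transcript labelled by its coding length, with blue for the FGF family and red for the VEGF family. White gaps are coding bases that a transcript leaves out, such as the exon of 104 bases in the lower row of FGF5 and everything after the first 2124 bases in the lower row of FLT1.

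The receptors fell into 3 size classes by family. FGFR3 had 17 exons and the other FGF receptors 18, with coding sequences of 2400 to 2658 bases. PDGFRA, a marker of mesenchymal progenitors, and PDGFRB, a marker of pericytes, had 23 exons each and coding sequences of 3294 and 3321 bases. FLT1, a high-affinity VEGF receptor that can act as a decoy, KDR, the main VEGF receptor of blood vessel endothelium, and FLT4, the lymphatic receptor, had 30 exons each and coding sequences of 4011, 4068 and 4095 bases. Exon numbers of the VEGF receptors lay above those of 95.77% of named genes. Span did not follow these classes, since FGFR4 (11047 bases) and FGFR2 (107348 bases) differed more than the family medians did, and FLT1 (205245 bases) stood well above KDR (47757 bases) and FLT4 (41317 bases) with the same exon number.

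Within a family the sizes of the coding exons were much alike from gene to gene. Toward the 3′ end FGFR1, FGFR2, FGFR3 and FGFR4 shared a run of 7 coding exons of 122, 111, 191, 123, 71, 138 and 106 bases, 862 bases in all. No other of the 21861 protein-coding genes carried it. The VEGF and PDGF receptors together shared a run of 4 coding exons of 123, 112, 100 and 106 bases. This run was found in 7 genes in all, the other two being KIT and FLT3, receptors of blood-forming cells. A further run of 95, 133, 105 and 111 bases was found in PDGFRA and PDGFRB and in no other protein-coding gene. The runs were looked for after the exon sizes had been seen, and are a description.

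**Figure D3:**
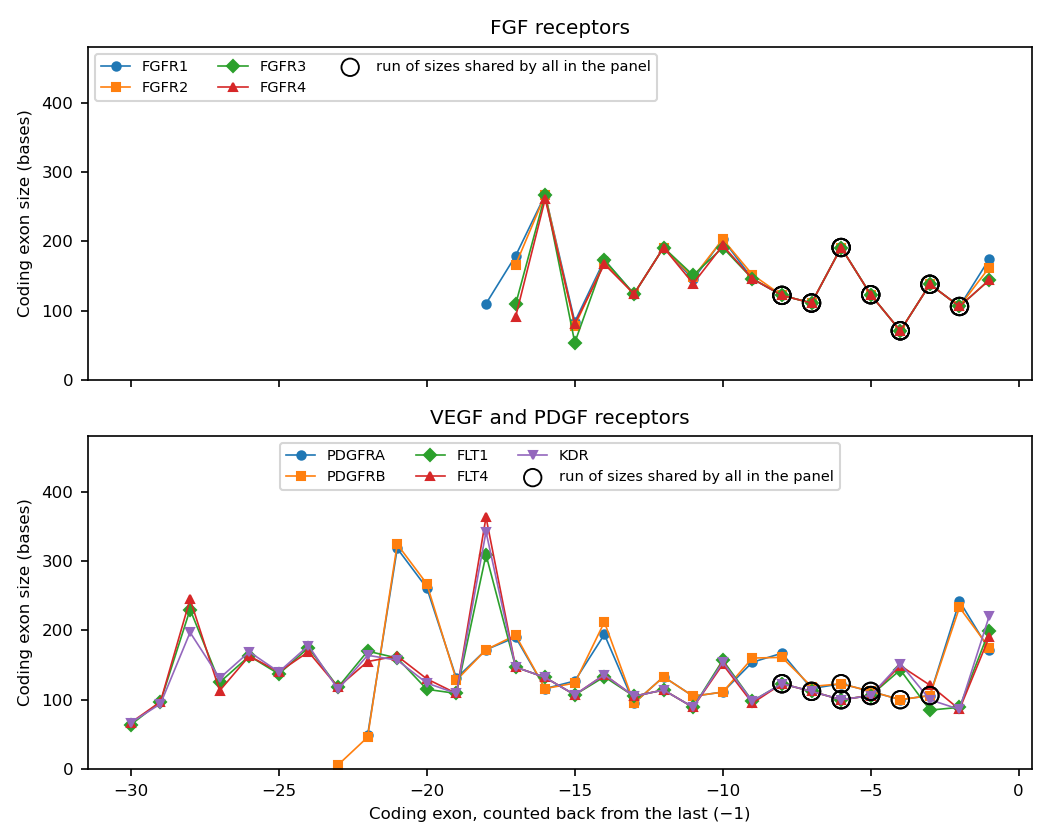
Size in bases of each coding exon of the transcript with the longest coding sequence, counted back from the last (−1), for the 4 FGF receptors (top) and the 5 VEGF and PDGF receptors (bottom), 1 line for each gene. Open circles mark the runs shared by all genes of a panel, 7 exons of 862 bases in the FGF receptors and 4 exons of 441 bases in the VEGF and PDGF receptors, where they lie 2 exons nearer the end in the PDGF receptors.

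FGFR1, FGFR2 and FGFR3 each held a pair of neighbouring coding exons that no transcript used together. In FGF receptors a choice of this kind, at the end of the third immunoglobulin-like domain, is known to give the IIIb and IIIc forms, which bind different FGFs in epithelium and mesenchyme. In FGFR1 (chromosome 27) an exon of 151 bases was used by 2 of 6 transcripts and one of 145 bases by 4, with 1142 bases between them. In FGFR2 (chromosome 26) an exon of 148 bases was used by 3 of 6 transcripts, one of 145 bases by 2, and neither by the remaining transcript, with 1440 bases between them. In FGFR3 (chromosome 6) an exon of 151 bases was used by 1 of 3 transcripts and one of 145 bases by 2, with 681 bases between them. The downstream exon had 145 bases in all 3 genes. FGFR4, with 1 transcript, had no such pair and held an exon of 139 bases at that place. The share of all genes with such a pair was not counted.

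FLT1 (chromosome 12, 31624125 to 31829369) had a short and a full-length transcript. The full-length transcript had 30 exons, 4011 coding bases and a 3′ UTR of 2538 bases. The short one had 15 exons, 2124 coding bases and a 3′ UTR of 177 bases, and ended 78959 bases upstream of the other. A soluble form of FLT1 that lacks the membrane and kinase parts and binds VEGF away from the cell is well known. KDR and FLT4 had 1 transcript each. PDGFRA (chromosome 6, 69723655 to 69771549) had 2 transcripts of nearly equal coding length, 3294 and 3267 bases, whose last coding exons differed and whose ends lay 6350 bases apart. FGFR2 had 6 different coding sequences of 1923 to 2523 bases, which shared 51.9% of their joined coding bases, and FGFR1 had 5, of 2199 to 2658 bases, which shared 67.5%.

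A 3′ UTR of at least 1 base was annotated for 31 of the 40 models, 77.5% (95% exact binomial interval 61.5 to 89.2%). The share was 65.5% in all protein-coding genes and 79.8% in named genes, and both values lie inside this interval. Every member carries a symbol by the rule of choice, so named genes are the like background. By role it was 23 of 31 ligands (74.2%, 55.4 to 88.1%) and 8 of 9 receptors (88.9%, 51.8 to 99.7%), whose intervals overlap. The intervals cover counting error only and treat genes as independent. The 9 models with none were FGF3, FGF4, FGF6, FGF8, FGF12, the chromosome X model of FGF13, FGF19, PDGFC and, among receptors, FGFR1. All 5 VEGF ligands and all 3 VEGF receptors had a 3′ UTR. All 6 transcripts of FGFR1 (chromosome 27, 33549267 to 33599083) ended at the same base, directly after the stop codon.

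Among models that had one, the longest 3′ UTR over transcripts had a median of 1000 bases in the 23 ligands and 1638.5 bases in the 8 receptors, beside 649 bases in named genes. The ranges overlapped almost entirely, from 110 bases in FGF21 to 6023 bases in FGF2 for ligands and from 655 bases in FGFR4 to 4518 bases in KDR for receptors, and the receptor was the longer in 124 of 184 pairs (67.4%). FGF2 (chromosome 17, 34801330 to 34860849) was longer than 99.95% of named genes and KDR (chromosome 6, 70564927 to 70612683) longer than 99.73%, genes without a 3′ UTR counted as 0. FGF1 (3072 bases), FGF14 (2867 bases), PDGFA (2824 bases) and FGF10 (2742 bases) followed FGF2 among ligands. FGF2 was thus the extreme in this measure while its coding sequence of 465 bases was, with that of FGF1, the shortest of all members. VEGF ligands had a median of 686 bases, from 394 in VEGFC to 1116 in VEGFA, and VEGF receptors of 2538 bases, from 1710 in FLT4. The 3 VEGF receptors lay above all 5 VEGF ligands. By the same count FLT4 and FLT1 were longer than 89.21% and 95.84% of named genes, VEGFC and VEGFA longer than 46.83% and 78.8%.

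For PDGFRA the length depended on the transcript. The transcript with the longest coding sequence had a 3′ UTR of 597 bases and the other one of 3269 bases. FGF5 (1432 against 1763 bases), FGF22 (701 against 748) and VEGFD (525 against 686) differed in the same direction by less. In the other direction, PDGFA had 2824 bases in the transcript with the longest coding sequence and 753 and 729 in the others. PDGFB had 1601 or 26 bases and FLT1 2538 or 177, again with more in the transcript with the longest coding sequence. FGF1, FGF18, PDGFD, VEGFA, VEGFB, VEGFD, FGFR2 and FGFR3 each had transcripts with and without a 3′ UTR. The share of named genes with transcripts of both kinds was not counted. More than 1 transcript end was annotated for 11 of 40 models, beside 32.1% of named genes, with 7 of 31 ligands and 4 of 9 receptors. In FGF1, FGF18, PDGFD, VEGFA, VEGFB and FGFR3 the other end was the stop codon of a transcript without a 3′ UTR. A 3′ UTR of exactly 1000 bases was annotated for FGF18, a cartilage signal, and PDGFRB, 2 of 40 models, beside 3.05% of named genes.

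**Figure D4:**
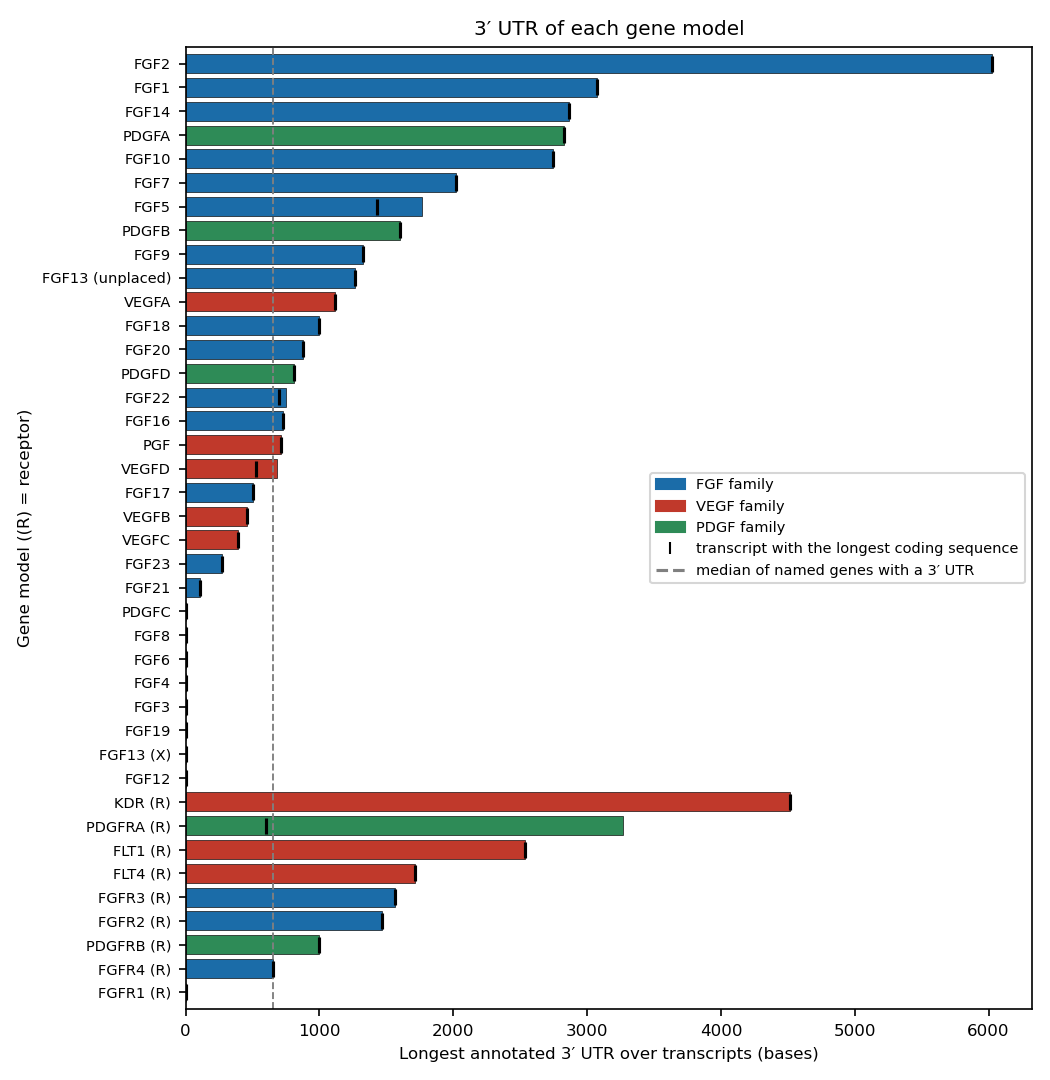
Longest annotated 3′ UTR in bases of each of the 40 gene models as a bar, ligands above and receptors (R) below, coloured by family, with a tick for the transcript with the longest coding sequence. The dashed line is the median of 649 bases of named genes with a 3′ UTR; 9 models have a bar of 0, and in PDGFRA the tick at 597 bases lies far below the bar of 3269 bases.

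No member shared exon bases with a gene on its own strand (0 of 40, beside 1.81% of named genes). On either strand 1 of 40 did, beside 9.16% of named genes. That gene was FGF2, whose exons overlapped those of NUDT6, a nudix hydrolase gene known as the FGF2 antisense gene, by 743 bases. All of these lay in the 3′ UTR of FGF2, and 450 of them were coding and 290 were 3′ UTR bases of NUDT6 (chromosome 17, 34747124 to 34807159). Reads counted without strand could not be told apart there.

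Both FGF13 models had introns of 1 base. An intron under 20 bases was found in 2 of 40 models, both of FGF13, beside 0.97% of named genes, and the next shortest intron of a member was 30 bases long, in VEGFD. The threshold was set after these introns had been seen. Exons on either side of such an intron were counted separately, also in the 6 exons given above for the unplaced model. Whether the 8 exons on chromosome X include such a split was not recorded. On chromosome X (22050164 to 22287792) 1 of 3 transcripts had 2 of them, and the model had 8 exons, a longest coding sequence of 765 bases and no 3′ UTR. On the unplaced scaffold (6393393 to 6468819) the only transcript had 1, with 6 exons, 735 coding bases and a 3′ UTR of 1262 bases. A second transcript on chromosome X also had 735 coding bases. Whether the models stand for the same locus was not tested.

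Several members lay side by side. On chromosome 29 FGF19, FGF4 and FGF3 followed each other on the minus strand with gaps of 59304 and 33554 bases and no gene between them, and none of the 3 had a 3′ UTR. On chromosome 5 FGF6 and FGF23 lay 37991 bases apart on the plus strand. Receptors lay beside related receptors of blood-forming cells. PDGFRA, KIT and KDR were in a row on chromosome 6, with gaps of 395142 and 310882 bases and no gene between, CSF1R and PDGFRB lay 62942 bases apart on chromosome 7, and FLT1 and FLT3 lay 161780 bases apart on chromosome 12 with PAN3 between them. Of the chromosomes, 7 held most members (5), followed by 6 and 29 (4 each).

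Within 500 kb of related members lay neighbours whose symbols shared a stem, the letters before the number, among stems of at most 10 named genes. All 3 named genes of the NPM stem, histone chaperones, lay upstream of the FGF8 group, NPM3 5094 bases from FGF8, NPM2 5785 bases from FGF17 and NPM1 10743 bases from FGF18, and on the same strand as the FGF. CCND1 lay 40324 bases from FGF19 and CCND2 36966 bases from FGF23, both cyclin D genes of the cell cycle, both downstream and on the opposite strand. All 3 named NSD genes, histone methyltransferases, lay downstream of an FGF receptor, NSD3 24835 bases from FGFR1, NSD2 80799 bases from FGFR3 and NSD1 34889 bases from FGFR4. LETM2 and LETM1, genes of mitochondrial ion exchange, lay between FGFR1 and NSD3 and between FGFR3 and NSD2, at 5115 and 5478 bases. The 3 named TACC genes lay upstream of FGFR1, FGFR2 and FGFR3, at 280787, 319138 and 45117 bases. This survey was made after the neighbours had been seen, and its count over other gene families was not made.

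**Figure D5:**
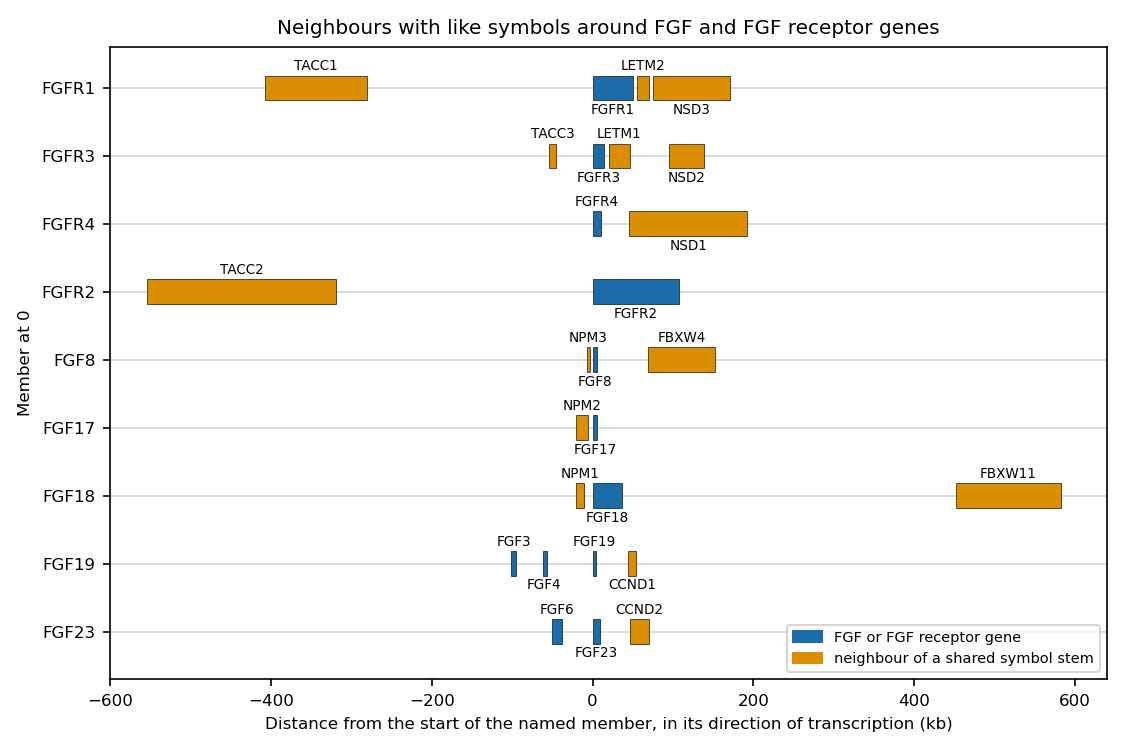
Position in kb of neighbours with a shared symbol stem around 9 FGF and FGF receptor genes, each row drawn in the direction of transcription with the start of the named member at 0. Blue boxes are FGF or FGF receptor genes and orange boxes neighbours within 500 kb (boxes under 4 kb are drawn 4 kb wide); NPM genes lie to the left of FGF8, FGF17 and FGF18, NSD genes to the right of FGFR1, FGFR3 and FGFR4, and CCND genes to the right of FGF19 and FGF23.

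The excess of exons in receptors was not found in every signalling family of the annotation. WNT ligand genes had a median of 4 exons (n = 19) and their Frizzled receptors, which cross the membrane several times, of 1 (n = 10). Ligands of the TGF-beta, BMP, GDF and activin group had a median of 3 exons (n = 30) and their receptors, serine and threonine kinases for the most part, of 11 (n = 13). Coding sequence was longer in receptors in all of these groups, with medians of 1086 against 1749 bases for WNT and 1273.5 against 1596 bases for the TGF-beta group. The 44 other receptor tyrosine kinases had a median of 19 exons and 2985 coding bases, near the 23 exons and 3294 bases of the 9 receptors here. Their median span was 98553.5 bases, against 47757 bases here, and their median 3′ UTR 874.5 bases (32 of 44 with one), against 1638.5 bases here. These differences were not tested.

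Genes that act with the receptors were looked up in 3 lists, whose counts with a 3′ UTR stand beside the 79.8% of named genes. Of 18 co-receptors and binding proteins 16 were matched (FGFBP2 and FGFBP3 were not), and 13 of these had a 3′ UTR, whose median length was 1000 bases. They ran from SDC2 (83 bases) to SDC3 (3892 bases), both syndecans that present growth factors on heparan sulfate, and GPC3, HSPG2 and IL17RD had none. The klothos KL and KLB, which hormone FGFs need, had 3′ UTRs of 1241 and 2545 bases, and the neuropilins NRP1 and NRP2, which bind VEGFs, of 2900 and 467 bases. All 25 genes of the relay from receptor to MAPK and AKT were matched, and the 3′ UTRs of the 21 that had one measured 1031 bases at the median. They ran from PTPN11 (33 bases), a phosphatase that promotes RAS signalling, to NRAS (3525 bases), and the kinases BRAF and PIK3CA and the RAS activators SOS1 and SOS2 had none. All 14 feedback and target genes were matched, and 10 carried an annotated 3′ UTR (median 864.5 bases), from DUSP5 (331 bases) to SPRED1 (2481 bases), both inhibitors of the pathway, and CBL, ETV4, SPRED3 and SPRY3 had none. No gene of the 3 lists shared exon bases with a gene on its strand, beside 1.81% of named genes.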

How the data were processed

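The deposited file used here was 1 gene annotation in gene transfer format with 1020224 feature lines, which holds the authors' choice of gene models for cattle (ARS-UCD1.2, per the file headers). It gives positions of features in bases, which belong to no sample. The submitters' processing notes list STAR, Seurat and Cell Ranger 3 with no role for each. The way in which reads of reindeer were set against cattle gene models is not stated in those notes or in the labels. Depth and precision per library are therefore not given.

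Each protein-coding gene was given its largest exon number and longest coding sequence over transcripts, its span, its number of transcripts, and its longest 3′ UTR (sum of segments, without the stop codon). Shares have 95% exact (Clopper-Pearson) intervals. No test across genes was made. Members, lists and comparisons were chosen with earlier results of these data known. Exon sizes, exon runs, introns under 20 bases, neighbours by symbol stem and the alternatives without either FGF13 model were chosen after their values were seen. Described in full were members at the extremes of a family and role, those without a 3′ UTR, with shared exon bases or in a cluster within 1 Mb. BMP2K, a kinase whose symbol fits the BMP pattern, was left out of the TGF-beta ligands. A planned comparison of proteins was not run, since no protein sequences were used here. Measures were tested on simulated data with several transcripts per gene. Python 3.11.15, NumPy 2.4.6, pandas 2.3.3, SciPy 1.17.1 and matplotlib 3.10.9 were used.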

Additional observations from a re-analysis of the deposited data

How the results depend on the processing

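The differences between ligands and receptors were recomputed under other definitions, without each family, without the intracellular FGFs and, chosen after seeing the data, without either FGF13 model. The other results had 1 alternative each, named genes as background for the share of members with a 3′ UTR and either strand for shared exon bases. A difference of medians was taken as kept within 1.5 times its reported value, and a share where it stayed inside the exact interval of the reported share, for ligands and receptors each. So judged, 46 of 52 alternatives kept the result, among them all for exons, coding length and span. Some could change little or nothing. The shortest 3′ UTR of a member had 110 bases, so a minimum of 50 bases gave the same values. Ranges of exons and coding length did not overlap, so leaving out genes could not reverse those differences. Leaving out intracellular FGFs or an FGF13 model did not touch the receptors. The receptor interval for the share, 51.8 to 99.7%, is wide. The difference in median transcripts (ligand minus receptor, -1) was 0 when counting transcript 3′ ends and 0 without the FGF family. The difference in median 3′ UTR (-638.5 bases) was -1775.5 bases without the FGF family and -177 bases without the VEGF family, and the cause was not tested. The share with a 3′ UTR (ligand minus receptor, -14.7 percentage points) was -11.11 without the FGF family, where all receptors left had one (100%, above the interval of the reported share). The share of members with a 3′ UTR lay 12 percentage points above all protein-coding genes but differed by -2.277 points from named genes, so its direction depends on the background. Both backgrounds lay inside the exact interval of the members' share, and only the named genes, like the members, all carry a symbol. No paired analysis was possible because the values come from gene models and no test. With 9 receptors, of which 8 have a 3′ UTR, shares and medians are coarse, and a missing 3′ UTR in the annotation does not show that the transcript has none.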

Other observations

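Some neighbours with a shared symbol stem lay further out or near fewer related members. MICU3 and MICU2, regulators of mitochondrial calcium uptake, lay 32975 bases from FGF20 and 52333 bases from FGF9, which belong to the same FGF group. SPRY4 and SPRY1, inhibitors of FGF signalling, lay 271110 bases from FGF1 and 444084 bases from FGF2, again of the same group. Other stems joined different FGF groups. These were XPO (FGF9 and FGF17), GRIN (FGF21 and FGF22), KCNA (FGF6, FGF21 and FGF23) and PPFIA (FGF3, FGF4, FGF19 and FGF21). FBXW (FGF8 and FGF18) and SHC (FGF7 and FGF22) stayed within a group, and MXD genes lay near FGFR3 and FGFR4. SUN1 and SUN2, nuclear envelope genes, lay 146865 bases from PDGFA and 288254 bases from PDGFB. Within 500 kb, by this rule of stems, neighbours of the VEGF ligands shared none with each other, and neighbours of the VEGF receptors shared none.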
